A study of Mus musculus with 6 samples.

Results

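The genes described here are 45 genes of cell division and DNA replication, measured in whole mouse thoracic aorta. They were chosen by name for their textbook roles, with earlier results of these data known. Of the 45, 43 had at least 1 named probe on the array, by 83 probes in all, while Ccnb1 and Mki67 are not analysed here. The array carried 45281 probes. Of the 43 genes, 29 had a probe that was detected on enough arrays to be tested, among 9837 tested genes of all kinds.

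Gene expression was measured on 6 Illumina bead arrays, which give for each probe the mean brightness of its beads. Wild-type (WT) mice were compared with littermates that carry the transgene TG SM-CaMKIIN (TG). CaMKIIN is a peptide inhibitor of the calcium- and calmodulin-dependent kinase CaMKII, expressed here in smooth muscle. Which promoter drives it, the sources used here do not state. All mice had the C57 Bl/6 background and were 12 weeks old when pumps were implanted. The pumps delivered 0.9% saline, or angiotensin II (Ang-II, a vasoconstrictor hormone) at 1.25 ug/kg/min in the same saline, and aortas were taken at day 14. There was 1 array each of WT saline and TG saline and there were 2 arrays each of WT Ang-II and TG Ang-II. Each group had 5 mice and their RNA was pooled, per the series' design text, whereas the sample titles call paired Ang-II arrays biological replicates. The labels do not tie mice to arrays. The p-values therefore cover the spread between these arrays alone, and that spread may be technical. The saline arrays have no replicate, and their spread was taken to equal that of the Ang-II arrays.

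A cell that leaves rest passes the G1 checkpoint with D and E cyclins, copies its DNA in S phase with the MCM helicase and the sliding clamp PCNA, and then divides under the mitotic kinases. Transcripts of mitotic genes are made mainly in late S and G2 phase, through promoters that carry CCAAT boxes and the so-called cell cycle genes homology region (CHR), which the DREAM complex and B-MYB with FOXM1 bind. E2F factors act on many S phase genes. Smooth muscle cells of a healthy adult aorta divide rarely, and Ang-II is known to act on growth of the vessel wall.

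The smooth muscle markers Acta2, Myh11, Tagln, Cnn1, Smtn and Des were detected on all 6 arrays. Acta2 lay between 15.02 and 15.19 on the log2 scale, while Tagln went from 12.87 under saline to 11.83 and 11.79 under Ang-II in WT and the median difference of the 6 markers there was -0.63. A probe counted as detected at a detection p under 0.01, which compares it with the negative control beads of the same array. Among all genes with a probe, 48.9% to 49.9% were detected on an array. Over the tested probes, the Ang-II arrays of WT correlated at 0.991 and those of TG at 0.990.

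More cell division genes were detected on the WT Ang-II arrays than on the saline arrays. On the WT saline array 21 of the 43 genes were detected and on the TG saline array 16. Both WT Ang-II arrays detected 29, and the TG Ang-II arrays detected 23 and 25. As shares these were 48.8% and 37.2% under saline, 67.4% on each WT Ang-II array, and 53.5% and 58.1% on the TG Ang-II arrays. The DNA replication genes added nothing to this difference, since 7 of 9 were detected on every array. The spindle and cytokinesis genes went from 3 on the WT saline array and 2 on the TG saline array to 6 on each WT Ang-II array and 4 on each TG Ang-II array. For the kinases, cyclins and cofactors of mitosis the numbers were 2 and 0 under saline, 4 on each WT Ang-II array and 3 on each TG Ang-II array. In bulk tissue, a smaller number of dividing cells and less RNA of these genes per cell cannot be told apart.

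**Figure D1:**
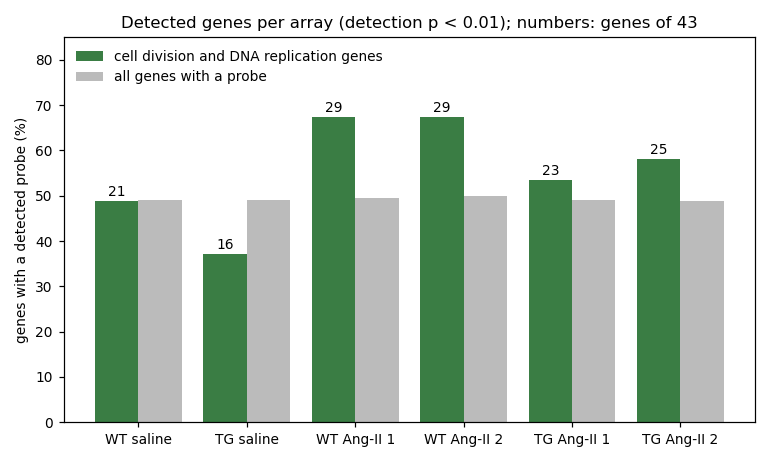
Share of genes with a detected probe on each of the 6 arrays, in percent, for the cell division and DNA replication genes (green, number of 43 above each bar) and for all genes with a probe (grey). The green bars reach 67.4% on both WT Ang-II arrays and lie between 37.2% and 58.1% on the others, while the grey bars stay between 48.9% and 49.9%.

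The other 14 genes were not detected by any probe on any array. They were the E cyclins Ccne1 and Ccne2, the helicase subunit Mcm3, the licensing inhibitor Gmnn, the cyclins Ccna2 and Ccnb2, the CDK-binding protein Cks2, the checkpoint kinase Bub1 and the ubiquitin-conjugating enzyme Ube2c. The remainder were the motor proteins Cenpe, Kif11 and Kif20a, the hyaluronan and microtubule binding protein Hmmr, and Racgap1 of the centralspindlin complex. Their level was below what these probes could measure, which does not show that the transcripts were absent.

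Promoters are shown for the 4 genes with the smallest adjusted p-value in any comparison, because the motifs best known from mitotic genes can be read in them. Each is the 250 bases before a start listed for the gene, from RefSeq's annotation of GRCm38.p6, 5′ to 3′ on the gene's own strand. For Prc1, Cenpa and Kif22 the annotated gene begins inside the stretch, at 80294445, 30666877 and 127042467. Capitals mark the CCAAT box and the CHR, searched as TTTGAA or as TTCGAA, or the reverse complement of either motif. The stretches are chr7:80294201-80294450 on the plus strand for Prc1, the first of 2 starts listed, chr7:122159185-122159434 on the plus strand for Plk1, chr5:30666636-30666885 on the plus strand for Cenpa, and chr7:127042421-127042670 on the minus strand for Kif22.
Prc1: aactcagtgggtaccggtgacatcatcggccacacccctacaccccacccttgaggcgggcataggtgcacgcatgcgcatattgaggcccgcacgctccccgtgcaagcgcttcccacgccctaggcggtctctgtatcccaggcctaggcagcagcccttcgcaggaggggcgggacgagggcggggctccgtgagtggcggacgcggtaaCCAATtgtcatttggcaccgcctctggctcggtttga
Plk1: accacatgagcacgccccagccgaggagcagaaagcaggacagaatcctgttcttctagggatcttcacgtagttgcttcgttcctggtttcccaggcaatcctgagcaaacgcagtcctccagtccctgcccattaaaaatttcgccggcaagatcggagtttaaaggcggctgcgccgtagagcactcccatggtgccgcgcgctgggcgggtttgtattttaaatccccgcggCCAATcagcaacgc
Cenpa: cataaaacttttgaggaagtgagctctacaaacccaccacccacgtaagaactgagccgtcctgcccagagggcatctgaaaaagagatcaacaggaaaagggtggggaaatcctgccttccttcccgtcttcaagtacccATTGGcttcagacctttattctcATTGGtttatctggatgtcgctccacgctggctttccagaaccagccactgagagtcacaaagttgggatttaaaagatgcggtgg
Kif22: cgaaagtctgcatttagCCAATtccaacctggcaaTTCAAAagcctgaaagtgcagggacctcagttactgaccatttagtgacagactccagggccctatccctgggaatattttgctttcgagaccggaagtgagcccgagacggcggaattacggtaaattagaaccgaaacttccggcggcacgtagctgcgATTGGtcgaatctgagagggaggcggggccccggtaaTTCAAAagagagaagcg

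The CHR letters of Prc1, Plk1 and Cenpa lie at or past the start, so a window of 30 bases around each is given with the letters in capitals. A search that takes in 50 bases past the start was added after the sequences had been seen. Counted from 1 at the listed start, with -1 just before it, the letters span -5 to 1 in Prc1 (window chr7:80294434-80294463), 31 to 36 in Plk1 (chr7:122159453-122159482) and 17 to 22 in Cenpa (chr5:30666890-30666919), all on the plus strand.
Prc1 window: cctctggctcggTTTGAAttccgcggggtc
Plk1 window: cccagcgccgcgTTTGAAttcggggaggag
Cenpa window: ggcgggtgatttTTTGAActgctggcgacc

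In Kif22, whose 250 bases already hold them, CHR letters stood at -215 to -210 and at -17 to -12, both on the strand opposite to the gene. CCAAT began at -37 in Prc1 and at -14 in Plk1, at -109 and -86 on the opposite strand in Cenpa, and at -233 and, on the opposite strand, -54 in Kif22. RefSeq's promoter table held 36 of the 45 genes. CCAAT on either strand was found in the 250 bases of 30 of these 36 (83.3%), against 34.5% of 27025 promoters. TTTGAA or TTCGAA was found in 12 (33.3%), against 17.4%, and in 21 (58.3%) against 19.4% when 50 bases past the start were included. An E2F-type match, TTCCCGC or TTGGCGC, was found in 8 (22.2%), against 5.71%. Of the 12 promoters of genes that rose with Ang-II in WT, 10 held CCAAT, as did 20 of the other 24. A TTGGCGC match that follows an A also holds CCAAT on the opposite strand. A match describes letters in a window and is not a measured binding site.

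**Figure D2:**
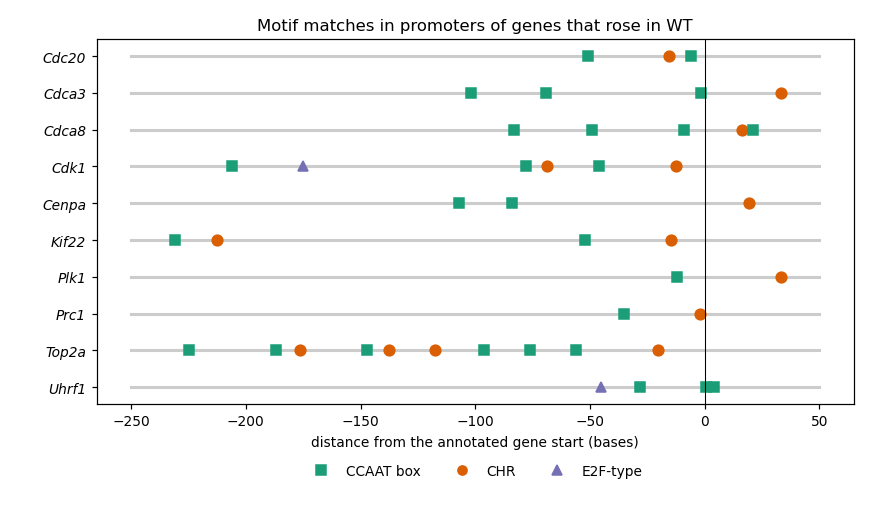
Position of CCAAT, CHR and E2F-type matches from 250 bases before to 50 bases after the listed start of 10 cell division genes that rose with Ang-II in WT, as distance in bases from that start (vertical line). The 10 are those of 12 such genes with a promoter that hold any match, and all 10 hold CCAAT before the start. CHR matches of Plk1, Cenpa, Cdca3 and Cdca8 lie after it.

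Ang-II raised mitotic genes of the WT aorta and left most replication genes without a call. Of the 29 tested genes 14 rose, none fell and 15 did not pass, where 6.09% of all tested genes rose and 2.63% fell. Called genes had an adjusted p under 0.05 in limma, adjusted over all tested probes. The median fitted log2 difference of the 29 was 1.15, or 0.92 with the 8 genes that were not detected in a group set to their bound, against -0.05 over all tested genes. A gene could enter the test through the WT Ang-II arrays alone, and Tk1, Aurkb, Kif2c and Tpx2 were detected only there, so they had to differ and the count of 14 is a description. Over all 43 genes with no detection filter, 11 rose and none fell, where 1.77% of all genes rose and 0.693% fell. Without the WT Ang-II array 1, 6 genes rose (Cdk1, Cenpa, Kif22, Plk1, Prc1, Top2a), and without the WT Ang-II array 2, 3 rose (Cenpa, Plk1, Prc1).

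**Figure D3:**
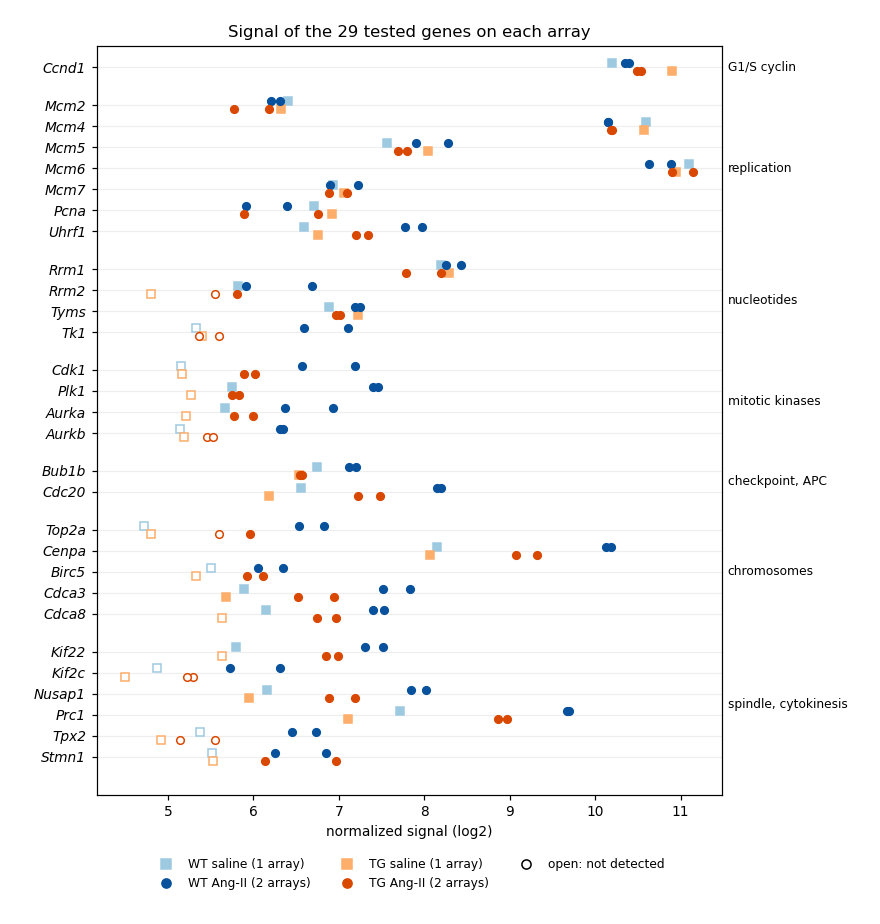
Log2 level of each tested cell division and DNA replication gene on each of the 6 arrays, grouped by role. Squares are the saline arrays, circles the Ang-II arrays, and open marks arrays that did not detect the gene. Prc1, Cenpa and Plk1 show the WT Ang-II arrays above all others.

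Among the 10 genes of the spindle and cytokinesis, 6 were tested and 4 rose in WT, where 6.09% of all tested genes did. Tpx2 entered the test through the WT Ang-II arrays alone, so the count is a description. Prc1 crosslinks antiparallel microtubules at the spindle midzone. Its log2 level was 7.72 on the WT saline array and 7.10 on the TG saline array, 9.67 and 9.70 on the WT Ang-II arrays, and 8.97 and 8.86 on the TG Ang-II arrays. All Ang-II arrays were above both saline arrays, with WT above TG. Prc1 rose 3.92-fold in WT (1.97 ± 0.15 SE on the log2 scale, adjusted p 0.00423). Nusap1, which binds microtubules around chromosomes, was at 6.16 and 5.94 under saline in WT and TG, at 7.84 and 8.01 under Ang-II in WT, and at 6.88 and 7.19 in TG. Its order of groups was that of Prc1, and its rise in WT was 3.40-fold (1.77 ± 0.19, adjusted p 0.00861). The chromosome-arm motor Kif22 was at 5.79 and 5.64 under saline, at 7.31 and 7.52 in WT Ang-II, and at 6.99 and 6.85 in TG Ang-II. Kif22 rose 3.08-fold in WT (1.62 ± 0.17, adjusted p 0.00819). Tpx2 activates Aurora A on spindle microtubules. Its levels were 5.37 and 4.92 under saline, 6.73 and 6.45 with Ang-II in WT, and 5.14 and 5.54 with Ang-II in TG. Only the WT Ang-II arrays detected it, and its rise in WT was at least 1.94-fold (1.21 ± 0.23, adjusted p 0.0344). Such a lower bound sets the mean of the brighter group against the lowest detected signal on the dimmer arrays, which lay between 5.54 and 5.69. A log2 difference against an undetected group is a fitted value and no measure of the fold.

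Kif2c, a kinesin that takes microtubules apart at kinetochores, was at 4.87 and 4.50 under saline, 5.72 and 6.31 with Ang-II in WT, and 5.29 and 5.22 with Ang-II in TG. Its difference in WT was 1.15 ± 0.26 (adjusted p 0.0515), and it passed in the average over both genotypes (0.95, adjusted p 0.0212). Neither saline array detected it. Stmn1, which destabilises microtubules, was at 5.52 and 5.53 under saline, 6.25 and 6.84 with Ang-II in WT, and 6.13 and 6.96 with Ang-II in TG. Its Ang-II arrays lay above the saline arrays in both genotypes, spread widely within each pair, and the difference passed in neither (1.03 ± 0.40 in WT, adjusted p 0.166, and 1.02 ± 0.40 in TG, adjusted p 0.188).

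Chromosome and kinetochore genes rose in 4 of 5 tested cases in WT, where 6.09% of all tested genes rose. Cenpa, the histone H3 variant that marks centromeres, was the brightest of these genes. Its log2 level was 8.15 on the WT saline and 8.06 on the TG saline array, 10.13 and 10.19 on the WT Ang-II arrays, and 9.32 and 9.07 on the TG Ang-II arrays. As bead brightness before normalization this was 478, 375, 1179, 1175, 628 and 535 in the same order. All Ang-II arrays were above both saline arrays, and Cenpa rose 4.03-fold in WT (2.01 ± 0.17, adjusted p 0.00503). Top2a, the topoisomerase that untangles sister chromatids, was at 4.71 and 4.81 under saline, 6.53 and 6.83 with Ang-II in WT, and 5.60 and 5.97 with Ang-II in TG. It was not detected under saline, and its rise in WT was at least 2.07-fold (1.97 ± 0.23, adjusted p 0.00928). Cdca3, an adaptor for the destruction of the mitotic inhibitor WEE1, was at 5.89 and 5.68 under saline, 7.51 and 7.83 with Ang-II in WT, and 6.94 and 6.52 with Ang-II in TG. Cdca3 rose 3.43-fold in WT (1.78 ± 0.24, adjusted p 0.0139). Cdca8, or borealin, belongs to the chromosomal passenger complex that guides Aurora B. It was at 6.15 and 5.63 under saline, 7.53 and 7.40 with Ang-II in WT, and 6.75 and 6.97 with Ang-II in TG, and it rose 2.49-fold in WT (1.31 ± 0.18, adjusted p 0.0130).

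Birc5, or survivin, belongs to the same complex and was at 5.50 and 5.33 under saline, 6.05 and 6.35 with Ang-II in WT, and 5.92 and 6.11 with Ang-II in TG. Its brighter probe missed the threshold in WT (0.70, adjusted p 0.0856) and passed in the average over genotypes (0.69, adjusted p 0.0236). Neither saline array detected it. A dimmer probe of Birc5, also undetected under saline, rose at least 1.15-fold in WT (fitted difference 1.30, adjusted p 0.0307), with 4.54 and 4.76 under saline, 5.60 and 6.07 with Ang-II in WT, and 4.91 and 5.12 with Ang-II in TG.

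Of 7 mitotic kinases, cyclins and cofactors with a probe, 4 were tested, all of them kinases. Of these, 3 rose in WT, where 6.09% of all tested genes did. Cdk1 entered the test through Ang-II arrays alone and Aurkb through the WT Ang-II arrays alone, so the count is a description. Plk1, the polo-like kinase of mitotic entry and exit, was at 5.75 and 5.27 under saline in WT and TG. Under Ang-II it was at 7.40 and 7.46 in WT and at 5.83 and 5.74 in TG. Both WT Ang-II arrays stood apart, and the TG Ang-II arrays lay next to the WT saline array. Its bead brightness was 167 and 132 under saline, 259 on each WT Ang-II array, and 138 and 135 on the TG Ang-II arrays, where the median probe of an array had 110 to 130.5. Plk1 rose 3.19-fold in WT (1.67 ± 0.15, adjusted p 0.00522). Cdk1, the kinase that drives entry into mitosis, was at 5.15 and 5.17 under saline, 6.57 and 7.19 with Ang-II in WT, and 5.89 and 6.02 with Ang-II in TG. Cdk1 rose at least 2.38-fold in WT (1.73 ± 0.27, adjusted p 0.0205). Aurkb, the kinase of the chromosomal passenger complex, was at 5.14 and 5.19 under saline, 6.35 and 6.32 with Ang-II in WT, and 5.46 and 5.52 with Ang-II in TG. It rose at least 1.63-fold in WT (1.20 ± 0.15, adjusted p 0.0116). Aurka, which matures the spindle poles, was at 5.67 and 5.21 under saline, 6.93 and 6.37 with Ang-II in WT, and 5.99 and 5.78 with Ang-II in TG. It did not pass in WT (0.98 ± 0.26, adjusted p 0.0777) and passed in the average (0.83, adjusted p 0.0330).

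Cdc20, the activator of the anaphase-promoting complex, was measured by 3 tested probes, of which 2 rose in WT. Its brightest probe was at 6.56 and 6.18 under saline, 8.14 and 8.20 with Ang-II in WT, and 7.48 and 7.22 with Ang-II in TG, a 3.06-fold rise in WT (1.61 ± 0.18, adjusted p 0.00861). The next brightest probe, detected on all 6 arrays, went from 5.79 under saline to 6.39 and 6.78 in WT (0.79, adjusted p 0.0716, not passed). The dimmest of the 3 went from 5.23 to 6.81 and 6.62 (at least 2.12-fold, adjusted p 0.0297). Bub1b, or BubR1, holds back that complex until chromosomes are attached. It was at 6.74 and 6.53 under saline, 7.12 and 7.19 with Ang-II in WT, and 6.57 and 6.54 with Ang-II in TG, and its difference in WT did not pass (0.41, adjusted p 0.150).

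Licensing and replication genes gave 1 rise among 7 tested in WT, where 6.09% of all tested genes rose, and their median was -0.14. That gene was Uhrf1, which reads hemimethylated DNA behind the replication fork and recruits the maintenance methyltransferase. Uhrf1 was at 6.59 and 6.75 under saline, 7.78 and 7.98 with Ang-II in WT, and 7.34 and 7.20 with Ang-II in TG, with a 2.45-fold rise in WT (1.29 ± 0.17, adjusted p 0.0129). The MCM helicase subunits behaved otherwise. Mcm6 was at 11.09 and 10.94 under saline, 10.63 and 10.89 with Ang-II in WT, and 11.15 and 10.90 with Ang-II in TG. Both TG Ang-II arrays lay above both WT Ang-II arrays and on either side of the TG saline array, with no call (-0.34 in WT, adjusted p 0.322). A dimmer probe of Mcm6 was lower in TG under Ang-II, at 9.39 and 9.32 against 9.80 and 9.71 in WT (-0.40, adjusted p 0.138, not passed). Mcm4 was at 10.59 and 10.57 under saline, 10.15 on each WT Ang-II array, and 10.20 and 10.18 in TG Ang-II. All its Ang-II arrays were below the saline arrays, and it fell by 0.41 ± 0.10 in the average over genotypes (adjusted p 0.0474) while passing in neither genotype alone. It passed there under 6 of 12 alternatives, with adjusted p from 0.00337 to 0.111. Mcm5 was at 7.56 and 8.05 under saline, 8.28 and 7.90 with Ang-II in WT, and 7.79 and 7.70 with Ang-II in TG, with no call (0.53 in WT, adjusted p 0.167). Pcna, the sliding clamp, was at 6.71 and 6.92 under saline, 5.91 and 6.39 with Ang-II in WT, and 5.88 and 6.75 with Ang-II in TG. It lay below its saline array on every Ang-II array, with no call (-0.56 in WT, adjusted p 0.400). Mcm2 and Mcm7 did not pass either, with -0.14 and 0.13 in WT. A dimmer probe of Mcm7, at 5.30 and 4.64 under saline, 5.53 and 5.67 with Ang-II in WT, and 6.18 and 6.05 with Ang-II in TG, rose at least 1.36-fold in TG (fitted difference 1.48 ± 0.16, adjusted p 0.00943), while the brighter one differed there by -0.07. Neither saline array detected the dimmer probe.

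In the supply of nucleotides, 1 of 4 genes rose in WT, where 6.09% of all tested genes did. That gene, Tk1, entered the test through the WT Ang-II arrays alone, so the count is a description. Tk1, the thymidine kinase of S phase cells, was at 5.33 and 5.40 under saline, 7.10 and 6.59 with Ang-II in WT, and 5.36 and 5.60 with Ang-II in TG. The TG Ang-II arrays did not detect it, and its rise in WT was at least 2.33-fold (1.52 ± 0.25, adjusted p 0.0242). Rrm1, the large subunit of ribonucleotide reductase, was at 8.20 and 8.29 under saline, 8.43 and 8.25 with Ang-II in WT, and 8.20 and 7.78 with Ang-II in TG. Tyms, the thymidylate synthase, was at 6.89 and 7.22 under saline, 7.19 and 7.25 with Ang-II in WT, and 7.01 and 6.97 with Ang-II in TG. Neither passed in any of the 6 comparisons, nor did Rrm2, the small reductase subunit (0.48 in WT, adjusted p 0.392). Ccnd1, the D cyclin of G1 phase, was the only tested gene of the G1 and S phase cyclins. It was at 10.20 and 10.90 under saline, 10.39 and 10.34 with Ang-II in WT, and 10.54 and 10.49 with Ang-II in TG, and passed in no comparison (0.17 in WT, adjusted p 0.514, and -0.39 in TG, adjusted p 0.189).

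In TG aortas, Ang-II raised 6 of the 29 genes and lowered none, where 5.23% of all tested genes rose and 1.56% fell. The 6 were Prc1, Kif22, Nusap1, Cenpa, Cdca8 and Cdc20, all of which rose in WT too. Prc1 had the largest difference (1.81 ± 0.15, 3.51-fold, adjusted p 0.00603). Kif22 rose at least 2.39-fold (1.29 ± 0.17, adjusted p 0.0153) and Cdca8 at least 2.28-fold (1.23 ± 0.18, adjusted p 0.0174). Cdc20 rose 2.25-fold by its brightest probe (1.17 ± 0.18, adjusted p 0.0208), but its other tested probes did not pass in TG (0.63, adjusted p 0.210, and 0.03, adjusted p 0.938), and with probes averaged the other 5 genes passed and Cdc20 did not. Cenpa rose 2.19-fold (1.13 ± 0.17, adjusted p 0.0217) and Nusap1 2.13-fold (1.09 ± 0.19, adjusted p 0.0327). These genes act at the centromere, in the passenger complex, on the spindle and in anaphase. By its brightest probe, no kinase, replication gene or nucleotide gene passed in TG, while the dimmer Mcm7 probe did. Plk1 differed by 0.51 ± 0.15 (adjusted p 0.111) and Top2a by 0.97 (adjusted p 0.0616), both undetected on the TG saline array, and Tk1 was detected on no TG array. The median fitted difference over the 29 genes was 0.52, against -0.06 over all tested genes, and 0.08 with the 13 genes that were not detected in a group set to their bound, or to 0 where neither group had a bound. Without a detection filter, where 1.42% of all genes rose and 0.283% fell, 3 genes rose in TG (Prc1, Kif22, Cdca8), and the same 3 rose without the WT Ang-II array 1 or 2, which leaves a spread estimated from the TG pair.

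Averaged over both genotypes, 17 of the 29 genes rose and 1, Mcm4, fell, where 10.4% of all tested genes rose and 7.01% fell. The genes that passed here and not in WT alone were Aurka, Birc5 and Kif2c, besides Mcm4. Tk1, Cdk1, Aurkb, Top2a, Birc5, Kif2c, Tpx2 and Stmn1 entered the test through Ang-II arrays alone. That favours rises, so the count of 17 is a description. Over the 43 genes with no detection filter, 12 rose and none fell. There the count over the array is by probe and not by gene, and is not a like share. Of all 45281 probes, 2106 passed, 66.6% of them as rises. Array by array over the 43 genes, 31 and 29 lay above their saline array in WT and 28 on each array in TG, where 45.8% to 47.1% of all genes did. Those higher by more than 1 on the log2 scale were 15 and 16 in WT, and 6 and 9 in TG, where 2.29% to 2.5% of all genes were. On 1 TG array 1 gene, Pcna, was lower by more than 1.

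**Figure D4:**
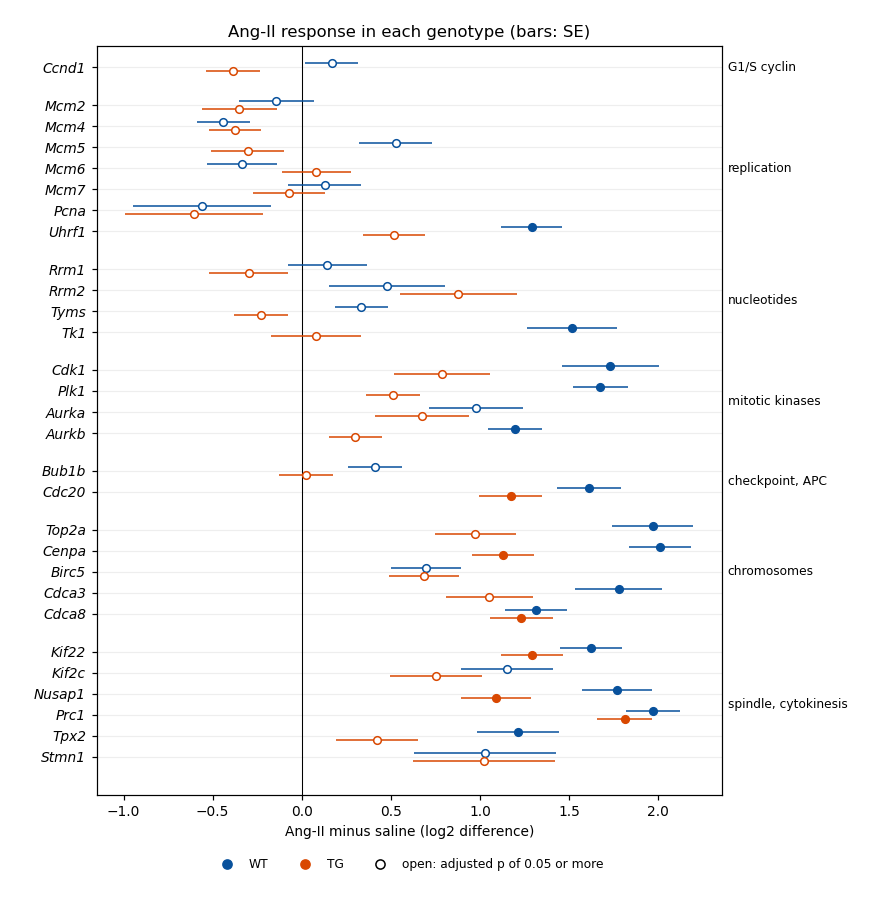
Log2 difference of Ang-II minus saline for each tested cell division and DNA replication gene in WT and in TG, with bars for the SE and filled marks for an adjusted p under 0.05 in limma. The mitotic genes lie to the right in both genotypes with WT further out, and the MCM genes lie between -0.44 and 0.53.

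Under Ang-II, 8 of the 29 genes were lower in TG than in WT and none was higher, where 2.33% of all tested genes were lower and 3.02% higher. Of the 8, Tk1, Tpx2 and Aurkb entered the test only through the WT Ang-II arrays and so had to be lower in TG, and the count is a description. This comparison uses the same Ang-II arrays as the responses above and is not independent of them. Plk1 was 3.13-fold lower (-1.64 ± 0.12, adjusted p 0.00269), with TG arrays at 5.83 and 5.74 against WT arrays at 7.40 and 7.46. Tk1 was at least 2.24-fold lower (-1.37 ± 0.21, adjusted p 0.0216) and Tpx2 at least 1.87-fold lower (-1.25 ± 0.19, adjusted p 0.0220). Cenpa was 1.95-fold lower (-0.96 ± 0.14, adjusted p 0.0205) and Nusap1 1.86-fold lower (-0.90 ± 0.16, adjusted p 0.0364). Plk1, Cenpa and Nusap1 were detected on both TG Ang-II arrays, unlike Tk1 and Tpx2. Cdc20 was 1.76-fold lower (-0.82 ± 0.14, adjusted p 0.0360) and Prc1 1.70-fold lower (-0.77 ± 0.13, adjusted p 0.0283), and Aurkb was at least 1.57-fold lower (-0.84 ± 0.12, adjusted p 0.0203). Several others lay short of the threshold, among them Top2a (-0.90, adjusted p 0.0538), Bub1b (-0.60, adjusted p 0.0546), Cdca3 (-0.94, adjusted p 0.0575) and Uhrf1 (-0.61, adjusted p 0.0708). Stmn1 differed by 0.00 (adjusted p 0.999). Both TG arrays lay below both WT arrays for 22 of the 29 genes and above them for 3, where 26.5% of all tested genes lay below and 26.6% above. The same filter bears on that count. Mcm6 is among the 3 by its brightest probe, and its dimmer tested probes differed the other way (-0.40 and -0.19, neither passed). Median fitted differences were -0.61 over the 29 genes (-0.60 with 4 at their bound) and 0.00 over all tested genes. Over the 43 genes with no filter, Plk1 and Aurkb were lower and none higher, where 0.624% of all genes were lower and 0.929% higher. Without the WT Ang-II array 1 or 2, 1 gene passed, and without the TG Ang-II array 1 or 2, 4 passed, while Plk1 passed under the 12 alternatives that tested it, of which the deposited table holds the same values. Requiring detection on all 6 arrays left Plk1 out.

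**Figure D5:**
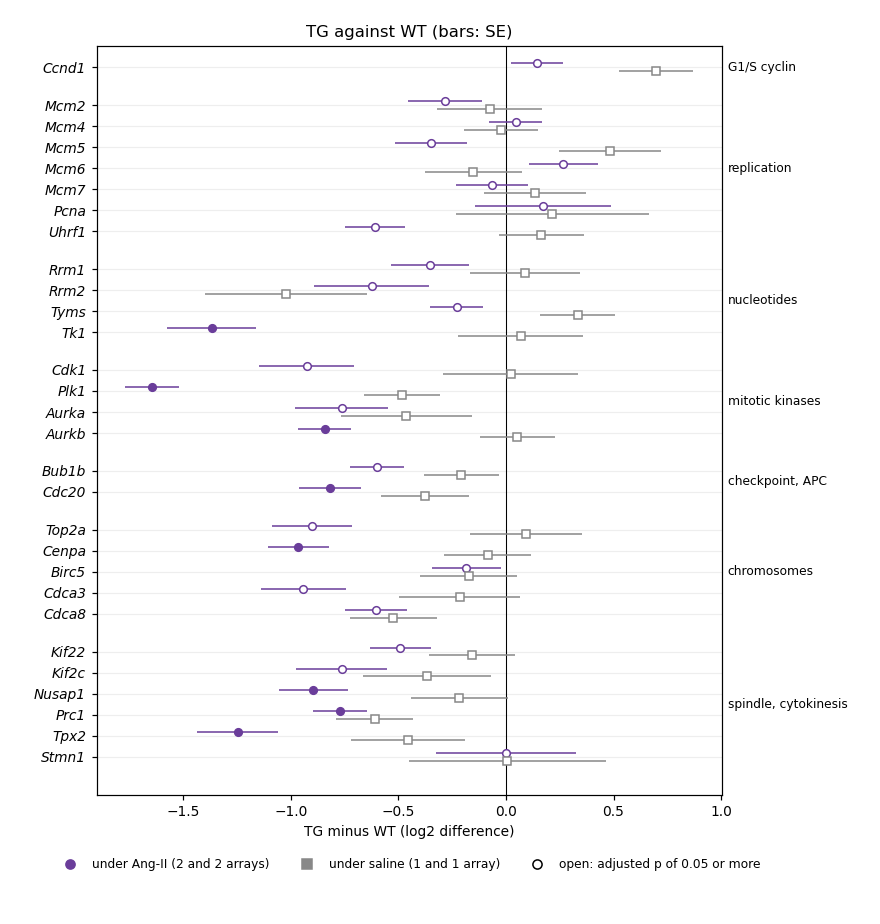
TG minus WT log2 difference of each tested cell division and DNA replication gene under Ang-II (circles) and under saline (squares), with bars for the SE and filled marks for an adjusted p under 0.05 in limma. The 8 filled circles lie left of 0, led by Plk1 at -1.64, and no square is filled.

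Under saline none of the 29 genes passed between the genotypes, where 0.102% of all tested genes were higher in TG and 0.061% lower. At an unadjusted p under 0.05 in limma, 1 was higher and 4 were lower, where 7.17% of all tested genes were higher and 6.56% lower. Ccnd1 was higher in TG by 0.70 (adjusted p 0.175) and passed under 2 of the alternatives, by 0.66 (adjusted p 0.0187) after quantile normalization with no background correction and by 0.70 (adjusted p 0.0101) with a trended robust prior. Its other tested probe differed by 0.24 (adjusted p 0.639), and its probes averaged by 0.47 (adjusted p 0.258).

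Whether the Ang-II response itself differed between genotypes was tested as TG response minus WT response, and none of the 29 genes passed, where 0.722% of all tested genes were positive calls and 0.539% negative. At an unadjusted p under 0.05, none was positive and 10 were negative in limma, where 6.62% of all tested genes were positive and 6.89% negative. Among the 10, Tk1 and Aurkb entered the test through the WT Ang-II arrays alone, and Cdk1 and Top2a through Ang-II arrays alone. The detection filter thus bears on this count too, and it is a description. Plk1 had the lowest adjusted p (-1.16, adjusted p 0.0865). Under other settings Plk1 and Cenpa passed after quantile normalization with no background correction (-0.68, adjusted p 0.0439, and -0.80, adjusted p 0.0255), Plk1 passed with a neqc offset of 50 (-0.94, adjusted p 0.0486), and Cenpa passed with a trended robust prior (-0.88, adjusted p 0.0346). Each of the 14 genes called in WT had a smaller fitted response in TG. They were picked by their WT response, and of all 599 genes that rose in WT, 83.8% were also smaller in TG.

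Of 84 other cell cycle genes listed, 48 were tested, and 7 rose and none fell in WT, against the 6.09% and 2.63% of all tested genes. Among those with the largest differences, Pbk, a mitotic kinase, was at 5.78 and 5.53 under saline, 8.26 and 8.35 with Ang-II in WT, and 7.02 and 6.76 with Ang-II in TG (5.75-fold in WT, 2.52 ± 0.18, adjusted p 0.00391). Cdkn3, a phosphatase that acts on CDKs, was at 5.90 and 5.40, 7.74 and 7.92, and 6.35 and 6.68 in the same order (1.93 in WT). Kif23, the motor partner of Racgap1 in centralspindlin, was at 9.24 and 9.21, 10.94 and 10.96, and 10.43 and 10.11 (1.71 in WT). The spindle protein Ckap2 rose at least 1.38-fold and the kinetochore protein Spc25 at least 1.68-fold. In TG, 6 rose and 1 fell, where 5.23% and 1.56% of all tested genes did, with Pbk (at least 2.33-fold), the condensin subunit Ncaph (at least 1.75-fold), Cdkn3 (at least 1.80-fold) and Kif23 (2.09-fold) among the rises. TG was lower than WT under Ang-II for 5 of the 48 and higher for 1, where 2.33% and 3.02% of all tested genes were, and the lower genes included Pbk (2.67-fold, adjusted p 0.00734), Ckap2 (at least 1.33-fold, adjusted p 0.00634), Cdkn3 (2.48-fold, adjusted p 0.0134) and Spc25 (at least 1.61-fold, adjusted p 0.0179). Ckap2 and Spc25 were not detected on the WT saline array or on the TG Ang-II arrays. The detection filter thus bears on these counts too, and they are a description.

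Of the other cell types checked, macrophage, erythroid and fat cell markers had their 2 highest sums on the WT Ang-II arrays, as many division genes did, and the other types did not. The whole order of groups was not the same in each. Erythroid and fat cell markers summed higher on the TG saline array than on the WT saline array. None of them rose with Ang-II in TG, and 1 fat cell marker fell. The summed level of 7 macrophage markers was 2096 on the WT saline array, 1857 on the TG saline array, 4641 to 4796 in WT Ang-II and 3399 to 3455 in TG Ang-II, with 5 of 7 higher in WT, 4 in TG and 3 lower in TG than in WT under Ang-II. For 5 erythroid markers the sums were 15713, 28545, 57644 to 59900.3 and 30628 to 32830.3 in the same order, with 4 of 5 higher in WT, none in TG, and 4 lower in TG under Ang-II. Fat cell markers gave 3313, 6493, 12395 to 13327 and 7423 to 8097, again with 4 of 5 higher in WT and 4 lower in TG under Ang-II. For 6 fibroblast markers the sums were 40801 and 40714 under saline, 66831 to 70889 in WT Ang-II and 67856 to 70465 in TG Ang-II, with 3 higher in each genotype. Smooth muscle markers gave 77018 and 72593 under saline, 62559 to 63192 in WT Ang-II and 67531 to 70252 in TG Ang-II, with 2 of 6 lower in WT. Of 5 heart muscle markers, 4 fell in WT and 4 rose in TG with Ang-II, with sums of 1765 and 1369 under saline, 808 to 822 in WT Ang-II and 10835 to 10885 in TG Ang-II. Lymphocyte markers summed to 217 to 330.3 over the arrays, and Ms4a1 and Cd79b were detected on none. Endothelial markers summed to 5425 and 9705 under saline, 4538 to 4830.5 in WT Ang-II and 6049 to 6267 in TG Ang-II. The part of these cells in the cell division results was not tested.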

How the data were processed

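Thoracic aorta RNA was profiled on 6 Illumina arrays. The deposited intensity columns hold, per the file headers, the mean linear brightness of a probe's beads, not normalized, with deposited signal columns for its standard error over 18 to 69 beads for these genes' probes and deposited detection p-value columns. The submitters' processing notes name GenomeStudio 2011.1 and limma 3.22.1. The deposited value table holds log2 values, and all 271686 equal, within 1e-08, those computed here by neqc (background from detection p, offset 16, quantile) in limma 3.58.1 under R 4.3.3.

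The 16749 probes that had a detection p under 0.01 on 2 or more of the 6 arrays were tested, and the probe with the highest mean stood for its gene. Symbols came from the platform annotation, updated through RefSeq (GRCm38.p6). limma fitted 4 group means with 2 residual and 3.75 prior degrees of freedom (prior SD 0.15), and p-values were adjusted by Benjamini-Hochberg over all tested probes, threshold 0.05. The number of arrays limits the precision. Genes were named with array values if called in any of the 6 comparisons, with up to 2 others per role by signal. From the list of 84, up to 6 called per comparison were named. Outside this rule, Pcna and dimmer probes of Birc5 and Mcm7 were given with array values, and other members in brief. Members and lists were chosen with earlier results of these data known. The procedure was tested on simulated data. Alternatives covered normalization, offset, filter, prior, averaged probes, the deposited values, a replicate block, left-out arrays and the 4 Ang-II arrays alone.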

Additional observations from a re-analysis of the deposited data

How the results depend on the processing

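No called difference reversed under the alternatives run. Uncalled ones could: Mcm6 between genotypes under Ang-II went from 0.27 to -0.11 with probes averaged, and its difference in TG from 0.08 to -0.09 with probes averaged and to -0.04 without TG Ang-II array 1. Sizes of called differences also changed, most for dim probes. With quantile normalization without background correction, Plk1 differed by 0.85 in WT rather than 1.67. Between genotypes under Ang-II it differed by -0.84 rather than -1.64. Over the alternatives, the difference in WT ranged from 0.83 to 1.73 for Kif22 and from 1.71 to 2.04 for the brighter Cenpa. Folds of dim genes thus depend on the background correction. Counts of called cell division genes moved by over 1.5 times as follows. In WT (14 rises), detection on all 6 arrays left 16 genes tested and 6 called, and counts ranged from 3 to 14 with an Ang-II array left out. In TG (6), no filter gave 3, and left-out arrays 3 to 6. The average (18 calls) gave 7 with detection on all 6 arrays and 14 to 18 with left-out arrays. Between genotypes under Ang-II (8), quantile normalization without background correction gave 13, an offset of 50 gave 14, no filter gave 2, and left-out arrays 1 to 4. Under saline (0), quantile normalization without background correction and the trended robust prior gave 1 each. The interaction (0) gave 2 with quantile normalization without background correction and 1 each with the offset of 50 and the trended robust prior. Apart from fewer tested genes or arrays, the cause was not tested. Same-numbered Ang-II arrays are not paired by the labels (correlation of their differences 0.115). A replicate block gave 17 calls for WT, 8 for TG, 19 for the average, 10 between genotypes with Ang-II, and 0 in the other comparisons. Over all probes, 1518 passed in WT (70% rises), against 2939 (55.8% rises) with quantile normalization without background correction, 2323 with the offset of 50, 781 with no filter and 3015 with the trended robust prior. Genes near background, such as Tk1, Aurkb and Tpx2, are limited by signal rather than by spread alone, and their folds are bounds.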

Other observations

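Among the other cell cycle genes that passed were 4 inhibitors of cyclin-dependent kinases, described here because they passed. Cdkn2c, or p18, was at 7.59 and 8.43 on the WT and TG saline arrays, 9.14 and 9.39 with Ang-II in WT, and 9.09 and 8.95 with Ang-II in TG, and it rose in WT (1.68, adjusted p 0.00819 in limma). Cdkn2b, or p15, was at 9.03 and 8.84 under saline, 9.54 and 9.46 with Ang-II in WT, and 7.83 and 7.98 with Ang-II in TG. It fell with Ang-II in TG by 0.94 (adjusted p 0.0281) and was lower in TG than in WT under Ang-II (-1.59 ± 0.13, adjusted p 0.00354). Cdkn1b, or p27, was at 6.36 and 5.52 under saline, 7.07 and 6.69 with Ang-II in WT, and 7.04 and 6.66 with Ang-II in TG, and it rose at least 2.27-fold in TG (adjusted p 0.0341). Cdkn1a, or p21, was at 10.09 and 11.34 under saline, 10.41 and 10.56 with Ang-II in WT, and 11.18 and 11.16 with Ang-II in TG. It was the 1 gene of the 48 higher in TG under Ang-II (0.68 ± 0.13, adjusted p 0.0443).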
